A study of Mus musculus with 9 samples.

Results

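The Toll-like receptors with the co-receptor gene Cd14 and the adaptor gene Myd88 were followed in brain RNA of APP/PS1 mice and of wild-type mice. The genes were chosen by symbol as Tlr1, Tlr2, Tlr3, Tlr4, Tlr5, Tlr6, Tlr7, Tlr9, Myd88 and Cd14, and for each gene the probe set that carries its symbol alone and has the highest mean was used. Such a probe set was found for 9 of the 10 genes, among 19938 genes in all, and the signal of Tlr5 was not analysed here. Brain RNA was hybridised to 9 arrays of the type GeneChip Mouse Gene 1.0 ST, 3 per group. The HPYD group were APP/PS1 transgenic mice on a C57/6J background that received the peptide HPYD through the nose, at 33 mg/mL and 5 µL per day for 30 days. The model group were APP/PS1 transgenic mice that received saline through the nose, also 5 µL per day for 30 days. The control group were wild-type C57/6J mice, described as of the same age, that received saline in the same way. Brains of all groups were taken at the end of a water maze test. The APP/PS1 mice, which form amyloid plaques because they carry extra genes of the amyloid precursor protein and of presenilin, were 8 months old when bought, and the sources used here name neither the transgenic line nor the promoter that drives the transgenes. The groups were compared to ask which transcripts differ in the model brain and which of these are altered after HPYD.

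Toll-like receptors are membrane proteins that bind molecules of microbes and of damaged cells. At the cell surface they bind lipids and proteins, and in endosomes they bind nucleic acids. Most of them signal through the adaptor Myd88 to nuclear factor kappa B (NF-κB) and to interferon regulatory factors, and so to cytokine and chemokine genes. In the brain they are made largely by microglia, the resident macrophages, and Tlr2, Tlr4 and Cd14 have been described as receptors through which microglia respond to fibrillar amyloid β.

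The promoter windows of Tlr2, Tlr3 and Myd88 are shown because in Tlr2 and Tlr3 the model arrays all lay above the control arrays, and Myd88 is the adaptor that most of the receptors share. Each window comprises 250 bases before and 50 bases after the gene's start in RefSeq (GRCm38.p6) and is written 5′ to 3′ on the gene's strand, which is the minus strand for all 3. Capitals mark matches to 4 motifs searched on both strands, namely the NF-κB consensus, the interferon-stimulated element GAAANNGAAA, the PU.1 core GAGGAA and the AP-1 site TGANTCA.
Tlr2, chr3:83841559-83841858: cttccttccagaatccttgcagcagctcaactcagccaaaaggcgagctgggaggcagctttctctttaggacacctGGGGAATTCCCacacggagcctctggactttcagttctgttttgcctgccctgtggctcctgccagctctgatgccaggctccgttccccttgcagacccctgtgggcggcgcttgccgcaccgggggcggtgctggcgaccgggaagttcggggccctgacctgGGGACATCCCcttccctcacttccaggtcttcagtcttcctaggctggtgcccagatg
Tlr3, chr8:45410331-45410630: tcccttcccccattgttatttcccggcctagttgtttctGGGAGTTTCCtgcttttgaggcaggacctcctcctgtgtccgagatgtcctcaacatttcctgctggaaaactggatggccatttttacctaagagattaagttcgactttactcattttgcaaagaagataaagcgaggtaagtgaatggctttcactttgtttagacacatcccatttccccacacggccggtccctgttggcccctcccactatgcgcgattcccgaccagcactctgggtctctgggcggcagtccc
Myd88, chr9:119339969-119340268: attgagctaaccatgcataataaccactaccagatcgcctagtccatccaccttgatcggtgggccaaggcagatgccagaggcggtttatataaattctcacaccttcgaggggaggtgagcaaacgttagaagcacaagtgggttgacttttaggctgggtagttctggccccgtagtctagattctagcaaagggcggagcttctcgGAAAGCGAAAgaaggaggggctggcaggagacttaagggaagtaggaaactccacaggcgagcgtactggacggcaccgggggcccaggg
The Tlr2 window held 3 matches to the NF-κB consensus, of which 2 overlap each other, and the Tlr3 window held 1. The Myd88 window held 1 match to GAAANNGAAA and none to the other motifs. Examined were 9 windows of 7 of the 10 genes, namely Tlr1, Tlr2, Tlr3, Tlr5, Tlr6, Tlr9 and Myd88, with more than 1 window for Tlr1 and Tlr6. The NF-κB consensus was found in those of 2 genes, Tlr2 and Tlr3. The shares that follow count windows and not genes. Of 32851 windows of this length in RefSeq, 8.46% held the NF-κB consensus, 3.44% GAAANNGAAA, 28.3% GAGGAA and 7.81% TGANTCA. A match is a description of the letters and not of a bound site.

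Values are deposited log2 signals per probe set, between 2.37 and 14.01 over all 35556 probe sets, with array medians between 6.69 and 6.82. The probe sets of 2 genes differ in how well they bind, so no gene's level was set against another's. The array labelled HPYD group 3, for short HPYD 3, went against its label. The amyloid precursor protein gene App was 12.53 in it, against 12.95 to 13.02 in the other APP/PS1 arrays and 12.56 to 12.62 in the control arrays. The prion protein gene Prnp, the source of the transgene promoter in a common APP/PS1 line, was 11.52 in it, against 12.42 to 12.55 in the other APP/PS1 arrays and 11.76 to 11.81 in the control arrays. The Y-linked Kdm5d was 7.84 in it and 7.62 to 7.77 in the control arrays, against 4.51 to 5.23 in the other APP/PS1 arrays, and Xist showed the opposite pattern. Sex and group therefore cannot be told apart in the model and control arrays. The same holds for HPYD against control arrays once HPYD 3 is left out. This may touch any gene in these comparisons, among them the X-linked Tlr7, Tlr8 and Tlr13. The HPYD differences of the 9 genes are given with and without HPYD 3. The mean level of 15 granulocyte genes ranged from 5.96 to 8.84 in HPYD arrays, from 5.89 to 9.69 in model arrays and from 6.53 to 6.72 in control arrays. It was raised in the arrays HPYD 2, Model 1 and Model 2, which also had the highest levels of 12 skeletal muscle genes. The median of 14 microglia genes against the control mean was 0.27, 0.33 and -0.67 log2 in HPYD 1, 2 and 3, and 0.37, -0.29 and 0.40 log2 in Model 1, 2 and 3. No source used here says that the arrays of a group are separate mice, so the p-values cover the spread among these arrays only. That spread may be technical, except that HPYD 3 differs from HPYD 1 and HPYD 2 in sex-linked genes and so comes from another mouse.

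Of the 9 measured genes, 0 were called after adjustment in the 3 comparisons (limma, Benjamini-Hochberg over 19938 genes, adjusted p under 0.05), and of all genes likewise 0. Without the array labelled HPYD group 3, 7 of all genes (0.0351%) were called between model and control arrays, 0 between HPYD and model arrays and 8 (0.0401%) between HPYD and control arrays, and of the 9 genes 0 in each. Of all genes, 2.87% were higher in model than in control arrays and 2.05% were lower at an unadjusted p under 0.05, and 3 of the 9 genes were higher by this rule, Tlr2, Tlr3 and Tlr4. Against the model group, Tlr3 and Tlr4 were lower in the HPYD group, 2 of 9 genes where 0.752% of all genes were lower. Against controls, Tlr2 and Cd14 were higher in the HPYD group, 2 of 9 genes where 2.00% of all genes were higher. With the array labelled HPYD group 3 left out, 0 of 9 genes were lower in HPYD than in model arrays, where 0.637% of all genes were, and 2 of 9, Tlr2 and Cd14, were higher than in controls, where 1.53% of all genes were. In bulk brain RNA, a different number of cells and a different amount of RNA per cell cannot be told apart.

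The arrays of the model group all lay above those of the control group for 2 of 9 genes, Tlr2 and Tlr3, and for 4.83% of all genes. The HPYD arrays all lay below the model arrays for 2 of 9 genes, Tlr3 and Tlr4, and for 0.983% of all genes, and above the control arrays for 2 of 9 genes, Tlr1 and Tlr2, and for 4.78% of all genes. With only HPYD 1 and HPYD 2 the same 2 genes lay below the model arrays, beside 3.73% of all genes, and 5 of 9 genes lay above the control arrays, Tlr1, Tlr2, Tlr9, Myd88 and Cd14, beside 7.32% of all genes. The mean of the model group was above that of the control group for 9 of 9 genes and for 45.0% of all genes. The median difference over the 9 genes was 0.22 log2 between model and control arrays, -0.03 log2 between HPYD and model arrays and 0.12 log2 between HPYD and control arrays, beside -0.01, 0.02 and 0.01 log2 over all genes. Without HPYD 3 the median of the 9 genes was 0.0049 log2 between HPYD and model arrays and 0.20 log2 between HPYD and control arrays, beside 0.01 and -0.01 log2 over all genes. HPYD against model shares the model arrays with model against control, and HPYD against control shares the control arrays with it.

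**Figure D1:**
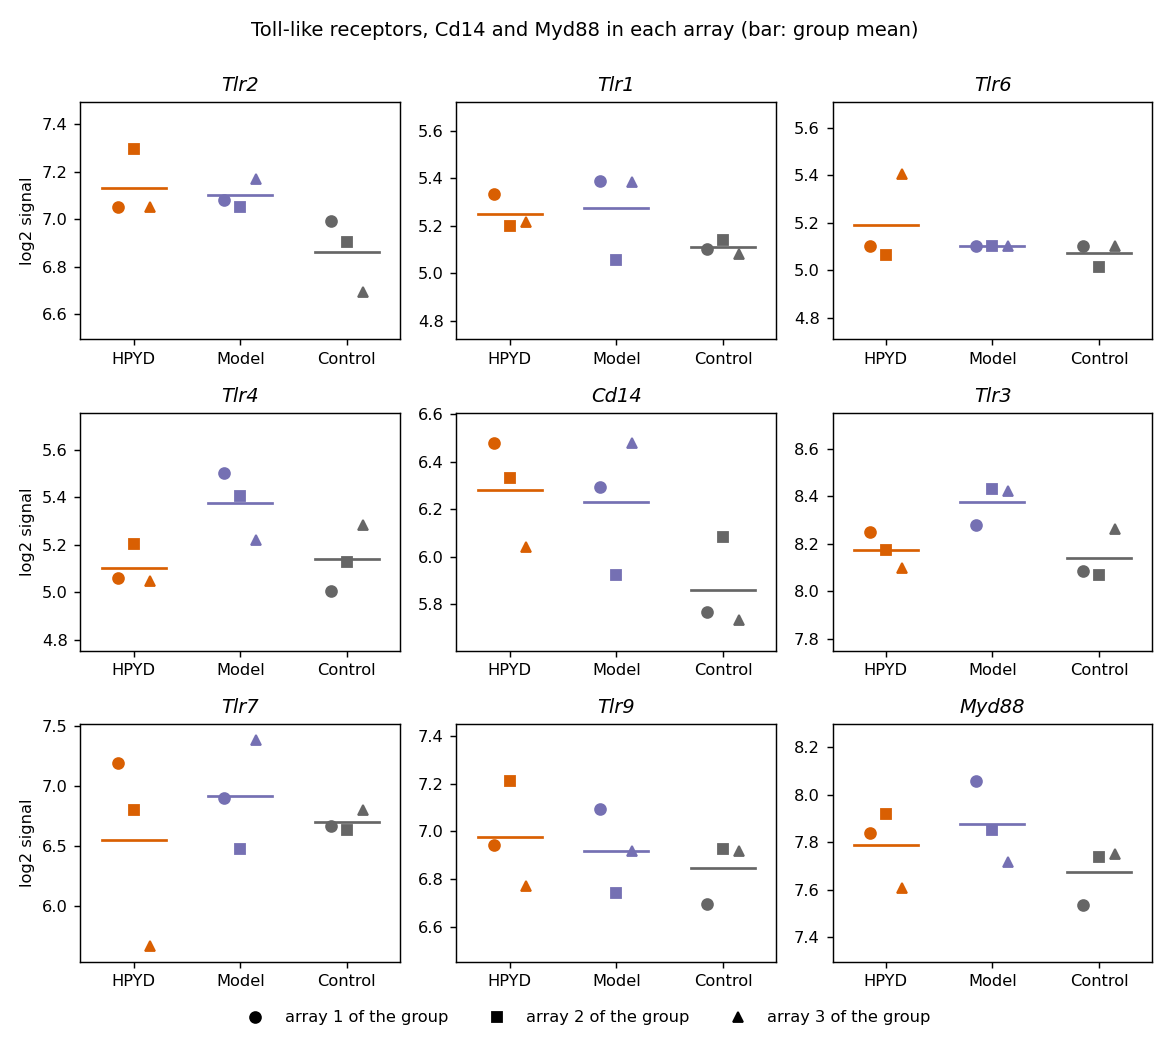
Log2 signal of each gene on the vertical axis in every array of the HPYD, model and control groups, with symbols for the array number and a bar for the group mean. Each panel has its own level range of at least 1 log2. The 3 model arrays lie above the 3 control arrays for Tlr2 and Tlr3, and the array HPYD 3 is the lowest for Tlr7 at 5.67.

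The receptors of bacterial lipopeptides are Tlr2 and its partners Tlr1 and Tlr6, with which it pairs at the cell surface. Tlr2 was at 7.05, 7.29 and 7.05 in the HPYD arrays, 7.08, 7.05 and 7.17 in the model arrays, and 6.99, 6.90 and 6.69 in the control arrays. The 3 HPYD and 3 model arrays were above the 3 control arrays, although HPYD 1, HPYD 3 and Model 2 carry one and the same value to all deposited digits. The mean was 7.13 ± 0.14 in HPYD arrays, 7.10 ± 0.06 in model arrays and 6.86 ± 0.15 in control arrays (SD, n = 3 arrays each). Model against control gave 0.24 log2 (95% confidence interval 0.01 to 0.46), a 1.18-fold difference (limma, unadjusted p = 0.0416, adjusted p = 0.859). HPYD against control gave 0.27 log2 (0.04 to 0.50, unadjusted p = 0.0254, adjusted p = 0.860). That difference was 0.31 log2 without the array labelled HPYD group 3 (limma unadjusted p = 0.0269). The exact two-sided permutation test gave p = 0.1 for both, the smallest that 3 arrays against 3 allow. Between the HPYD and model groups Tlr2 differed by 0.03 log2, with an interval from -0.20 to 0.26, and the arrays overlapped. This difference was 0.07 log2 without HPYD 3. All these p-values rest on few arrays. Leaving out any model array, or Control 2 or Control 3, moved the unadjusted p for model against control to between 0.0533 and 0.145, and without HPYD 2 or Control 3 that for HPYD against control was 0.0890 and 0.0889. Without the 3 arrays with raised granulocyte genes, Tlr2 gave 0.31 log2 for model against control (limma unadjusted p = 0.0668) and 0.19 log2 for HPYD against control (limma unadjusted p = 0.130). That setting leaves 1 model array, whose spread is taken from the other groups, so each p-value given for it rests on that assumption.

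Tlr1, which pairs with Tlr2 in the recognition of bacterial lipopeptides, was at 5.33, 5.20 and 5.22 in the HPYD arrays, 5.39, 5.05 and 5.38 in the model arrays, and 5.10, 5.14 and 5.08 in the control arrays. The 3 HPYD arrays lay above the control arrays, and so did Model 1 and Model 3, while Model 2 lay below all of them. The difference was 0.17 log2 for model against control (-0.05 to 0.39, limma unadjusted p = 0.118, adjusted p = 0.859) and 0.14 log2 for HPYD against control (-0.08 to 0.36, limma adjusted p = 0.860). For HPYD against model it was -0.03 log2 (-0.24 to 0.19, limma adjusted p = 1). Without HPYD 3 these HPYD differences were 0.16 log2 against control and -0.01 log2 against model. Leaving out Model 2, the lowest model array, raised the difference of model against control by construction, to 0.28 log2 (limma unadjusted p = 0.00335). The adjusted p was not under 0.05 there. Over 18 alternative settings the unadjusted p of this difference was under 0.05 in 4, and the highest was 0.321. Without the 3 arrays with raised granulocyte genes the difference was 0.27 log2. In that setting of 1 model array, 2 of 9 genes were higher by this p, Tlr1 and Cd14, where 0.878% of all genes were. Model 2 was also low in the microglia genes and had the highest mean level of granulocyte genes, and the part of either in this value was not tested.

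Tlr6, the other partner of Tlr2, gave the same value, 5.10, in 6 arrays, namely HPYD 1, all model arrays, Control 1 and Control 3. Only HPYD 3 stood apart, at 5.40. The differences were 0.03 log2 for model against control and 0.12 log2 for HPYD against control, which became 0.01 log2 without HPYD 3, where HPYD against model was -0.02 log2. Such repeats are common in the table, where 2 or more arrays share one value to all digits in 14661 of the 35556 probe sets (41.2%), for a reason that no source used here gives. Tlr1 and Tlr6 are close relatives in sequence, and whether their probes tell them apart was not examined.

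Tlr4 and Cd14 form part of the receptor for bacterial lipopolysaccharide, Tlr4 as the signalling chain and Cd14 as the protein that hands the ligand over. Tlr4 was at 5.06, 5.20 and 5.05 in the HPYD arrays, 5.50, 5.41 and 5.22 in the model arrays, and 5.01, 5.13 and 5.28 in the control arrays. The HPYD arrays all lay below the model arrays, and the model and control arrays overlapped through Model 3 and Control 3. The mean was 5.10 ± 0.09 in HPYD arrays, 5.38 ± 0.14 in model arrays and 5.14 ± 0.14 in control arrays (SD, n = 3 arrays each). The difference of HPYD against model was -0.27 log2 (-0.50 to -0.05, limma unadjusted p = 0.0245, adjusted p = 1). The exact two-sided permutation test gave p = 0.1. Of model against control it was 0.24 log2 (0.01 to 0.46, limma unadjusted p = 0.0432, adjusted p = 0.859), and of HPYD against control -0.04 log2 (-0.26 to 0.19).

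The granulocyte genes were raised in Model 1 and Model 2, the arrays with the highest Tlr4 signals, and also in HPYD 2. The Tlr4 signal of HPYD 2 was the highest of the HPYD arrays. It lay below those of Model 3 and Control 3, where the granulocyte genes were not raised. The source of the Tlr4 signal was not tested. When the mean granulocyte level was added to the fit as a covariate, an alternative added after the values were seen, the difference of model against control was 0.14 log2 (limma unadjusted p = 0.188) and that of HPYD against model -0.20 log2 (limma unadjusted p = 0.0543). Without the 3 raised arrays the differences were 0.08 and -0.17 log2. Without the array labelled HPYD group 3, HPYD against model gave -0.24 log2 (limma unadjusted p = 0.0699) and HPYD against control -0.01 log2. Leaving out HPYD 1, Model 1 or Model 2 also moved that p to between 0.0598 and 0.0872, and for model against control the unadjusted p lay between 0.0536 and 0.150 without HPYD 1, HPYD 3, Model 1, Model 2, Control 1 or Control 2.

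Cd14 was at 6.48, 6.33 and 6.04 in the HPYD arrays, 6.29, 5.92 and 6.48 in the model arrays, and 5.77, 6.08 and 5.73 in the control arrays. HPYD 1, HPYD 2, Model 1 and Model 3 lay above every control array, whereas HPYD 3 and Model 2 lay below Control 2. The mean was 6.28 ± 0.22 in HPYD arrays, 6.23 ± 0.28 in model arrays and 5.86 ± 0.19 in control arrays (SD, n = 3 arrays each). Its differences were the largest of the 9 genes towards a higher level in the HPYD and model groups, at 0.42 log2 for HPYD against control (0.03 to 0.81, 1.34-fold, limma unadjusted p = 0.0389, adjusted p = 0.860) and 0.37 log2 for model against control (-0.02 to 0.76, limma unadjusted p = 0.0624, adjusted p = 0.859). The HPYD and model groups differed by 0.05 log2 (-0.34 to 0.45), or by 0.17 log2 without HPYD 3. With the array labelled HPYD group 3 left out, HPYD against control was 0.54 log2 (limma unadjusted p = 0.0175), and without Model 2 that of model against control was 0.52 log2 (limma unadjusted p = 0.0115). Leaving out HPYD 1, HPYD 2, Model 1, Control 1 or Control 3 gave an unadjusted p between 0.0533 and 0.129 for HPYD against control. Without the 3 arrays with raised granulocyte genes, Cd14 gave 0.62 log2 for model against control (limma unadjusted p = 0.0405) and 0.40 log2 for HPYD against control (limma unadjusted p = 0.0753).

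**Figure D2:**
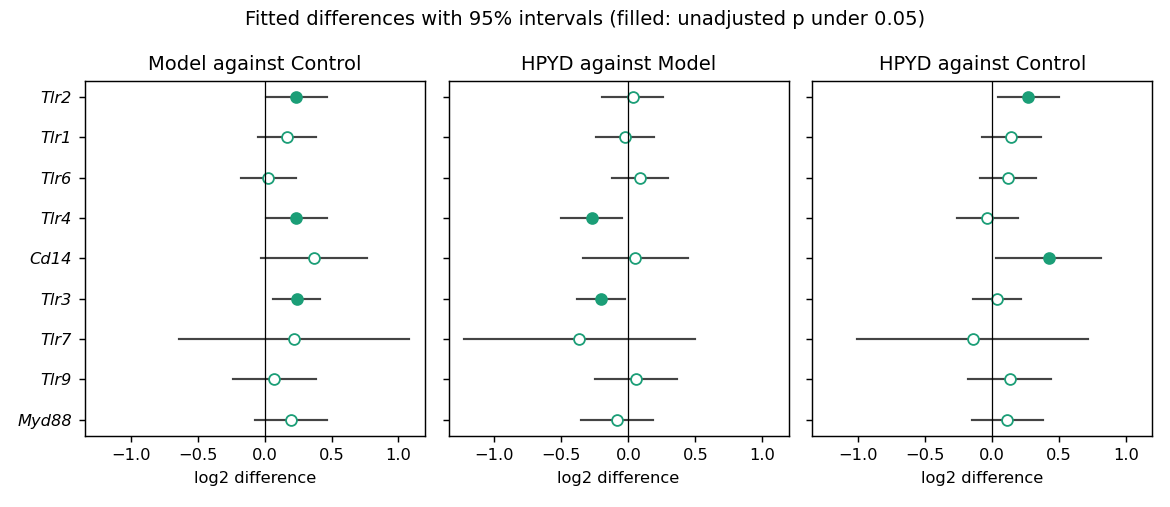
Difference between group means on the log2 scale, with its 95% confidence interval from limma, for each gene in the 3 comparisons. Filled points have an unadjusted p under 0.05, which are Tlr2, Tlr4 and Tlr3 for model against control, Tlr4 and Tlr3 for HPYD against model, and Tlr2 and Cd14 for HPYD against control.

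The receptors of nucleic acids act in endosomes. Tlr3 binds viral RNA duplexes and signals through the adaptor Ticam1 and not through Myd88. Tlr3 was at 8.25, 8.17 and 8.10 in the HPYD arrays, 8.28, 8.43 and 8.42 in the model arrays, and 8.09, 8.07 and 8.26 in the control arrays. The model arrays lay above all HPYD and control arrays, Model 1 by the least. The mean was 8.17 ± 0.07 in HPYD arrays, 8.38 ± 0.09 in model arrays and 8.14 ± 0.11 in control arrays (SD, n = 3 arrays each). Tlr3 had the smallest p of the 9 genes for model against control, where it was higher by 0.24 log2 (0.06 to 0.42, limma unadjusted p = 0.0147, adjusted p = 0.859). HPYD against model gave -0.20 log2 (-0.38 to -0.03, limma unadjusted p = 0.0298, adjusted p = 1), and HPYD against control 0.04 log2 (-0.14 to 0.21). The exact two-sided permutation test gave p = 0.1 for each of the first 2 comparisons.

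The sign of both Tlr3 differences was the same in the 19 alternative settings run. Without the 3 arrays with raised granulocyte genes they were 0.28 and -0.25 log2 (limma unadjusted p = 0.0596 and 0.101). With the granulocyte level as a covariate they were 0.26 log2 for model against control (limma unadjusted p = 0.0254) and -0.22 log2 for HPYD against model (limma unadjusted p = 0.0393). Without the array labelled HPYD group 3, HPYD against model gave -0.17 log2 (limma unadjusted p = 0.0924) and HPYD against control 0.07 log2, and leaving out HPYD 2, Model 2 or Model 3 gave an unadjusted p between 0.0617 and 0.0864. For model against control the unadjusted p was 0.0521 without Control 1 and 0.0540 without Control 2.

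Tlr7, the endosomal receptor of single-stranded RNA, had the widest range of the 9 genes, 1.72 log2. It was at 7.19, 6.80 and 5.67 in the HPYD arrays, 6.90, 6.47 and 7.38 in the model arrays, and 6.67, 6.63 and 6.80 in the control arrays. HPYD 3 lay below all other arrays and Model 2 below all control arrays, the same 2 arrays that were low in the microglia genes, while Model 3 and HPYD 1 were the highest. The part of the microglia genes in these values was not tested. The groups overlapped in all 3 comparisons. The differences were 0.22 log2 for model against control (-0.64 to 1.08), -0.37 log2 for HPYD against model (-1.23 to 0.50) and -0.15 log2 for HPYD against control (-1.01 to 0.72), with limma adjusted p-values of 0.928, 1 and 0.934. With the array labelled HPYD group 3 left out, HPYD against model was 0.08 log2 and HPYD against control 0.30 log2, so that both changed sign. Model against control was -0.01 log2 without Model 3.

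Tlr9, the endosomal receptor of unmethylated CpG DNA, was at 6.94, 7.21 and 6.77 in the HPYD arrays, 7.09, 6.74 and 6.92 in the model arrays, and 6.69, 6.93 and 6.92 in the control arrays. All groups overlapped. The differences were 0.07 log2 for model against control (-0.24 to 0.38), 0.06 log2 for HPYD against model (-0.25 to 0.37) and 0.13 log2 for HPYD against control (-0.18 to 0.44). Without HPYD 3 the HPYD differences were 0.16 log2 against model and 0.23 log2 against control (limma unadjusted p = 0.277 and 0.129), and HPYD 1 and 2 lay above the control arrays.

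Myd88, the adaptor of all these receptors apart from Tlr3, was at 7.84, 7.92 and 7.61 in the HPYD arrays, 8.06, 7.85 and 7.72 in the model arrays, and 7.54, 7.74 and 7.75 in the control arrays. HPYD 1, HPYD 2, Model 1 and Model 2 lay above every control array, and HPYD 3 and Model 3 lay among them. The mean was 7.79 ± 0.16 in HPYD arrays, 7.87 ± 0.17 in model arrays and 7.68 ± 0.12 in control arrays (SD, n = 3 arrays each). The differences were 0.20 log2 for model against control (-0.07 to 0.47, limma adjusted p = 0.859), -0.09 log2 for HPYD against model (-0.35 to 0.18) and 0.11 log2 for HPYD against control (-0.15 to 0.38). HPYD against control was 0.20 log2 and HPYD against model 0.0049 log2 with the array labelled HPYD group 3 left out. Without the 3 arrays with raised granulocyte genes, model against control gave 0.04 log2.

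Set side by side array by array, Model 1 had 8 of the 9 genes above the highest control array, HPYD 1 had 6, HPYD 2 and Model 3 had 5 each, Model 2 had 4 and HPYD 3 had 3. Of all genes, 25.3% lay above the highest control array in Model 1, 20.6% in HPYD 1, 29.6% in HPYD 2, 19.1% in Model 3, 30.1% in Model 2 and 39.6% in HPYD 3. Model 2 had 2 of the 9 genes below the lowest control array, Tlr1 and Tlr7, beside 38% of all genes. HPYD 3 had 1, Tlr7, beside 27.5% of all genes. The median difference from the control mean over the 9 genes was 0.16, 0.10 and -0.04 log2 in HPYD 1, 2 and 3, and 0.25, 0.06 and 0.27 log2 in Model 1, 2 and 3. Plaque-associated microglia genes, of which 12 were measured, had medians of 0.89, 0.70 and 0.07 log2 in the HPYD arrays and 0.84, 0.48 and 0.86 log2 in the model arrays. In both groups the array with the lowest median of the 9 genes was also the one with the lowest medians of both microglia lists.

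**Figure D3:**
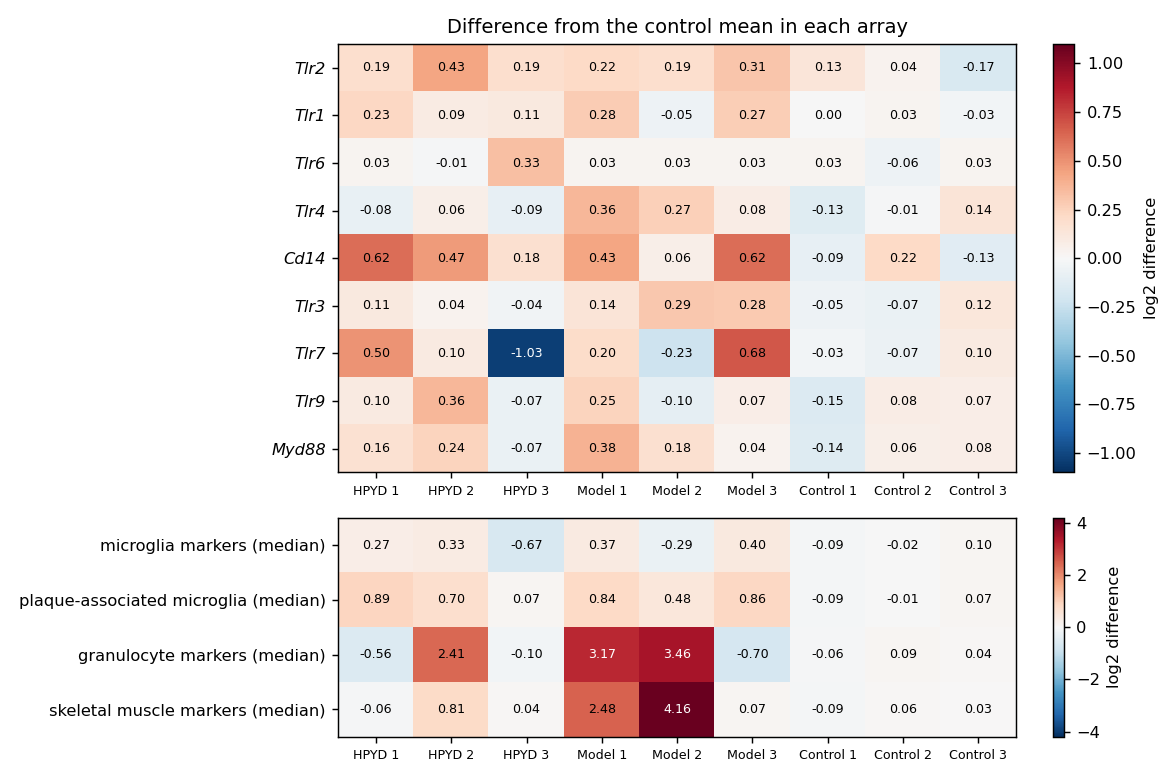
Log2 difference from the control mean in each array, for each of the 9 genes in the upper panel and as the median of 4 marker lists in the lower panel, which has a wider colour range. Tlr7 reaches -1.03 in HPYD 3, where the microglia median is -0.67, and the granulocyte medians are 2.41, 3.17 and 3.46 in HPYD 2, Model 1 and Model 2.

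Of the other Toll-like receptors, 3 of 4 listed genes were measured, and their means were higher in model than in control arrays for 3 of 3, beside 45.0% of all genes. Tlr8, a receptor of the family of Tlr7, was at 4.64, 4.90 and 4.52 in the HPYD arrays, 5.09, 5.16 and 4.76 in the model arrays, and 4.67, 4.75 and 4.67 in the control arrays. Its 3 model arrays lay above the control arrays, with a difference of 0.31 log2 for model against control (limma unadjusted p = 0.0422) and -0.31 log2 for HPYD against model (limma unadjusted p = 0.0386, and 0.129 without the array labelled HPYD group 3). Without the arrays with raised granulocyte genes the first of these was 0.06 log2. Tlr13, which binds bacterial ribosomal RNA, was at 7.22, 7.51 and 6.44 in the HPYD arrays, 7.33, 7.34 and 7.39 in the model arrays, and 6.86, 6.65 and 6.90 in the control arrays. All model arrays and HPYD 1 and 2 lay above the control arrays, and HPYD 3 lay below them. The difference of Tlr13 was 0.55 log2 for model against control (limma unadjusted p = 0.0473) and 0.26 log2 for HPYD against control, or 0.56 log2 without HPYD 3 (limma unadjusted p = 0.00124, adjusted p = 0.596).

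The other adaptors that share the signalling domain of Myd88 were all measured. Model means were above control means for 3 of the 4, beside 45.0% of all genes, and 0 passed an unadjusted p under 0.05 in any comparison. Of all genes, 4.92%, 1.97% and 3.24% passed in either direction for model against control, HPYD against model and HPYD against control. At such shares a count of 0 among 4 genes tells little. Ticam1, the adaptor of Tlr3, differed by 0.13 log2 for model against control (-0.02 to 0.27) and by -0.07 log2 for HPYD against model (-0.22 to 0.08). Tirap, which links Tlr2 and Tlr4 to Myd88, differed by 0.26 log2 for model against control (-0.07 to 0.58).

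Receptor partners and chaperones, 13 of 13 listed, were higher in the mean of model than of control arrays for 10 genes, beside 45.0% of all genes. Of these, 4 had an unadjusted p under 0.05, where 2.87% of all genes were higher by this rule. Lgmn and Ctsl, lysosomal proteases that cut endosomal receptors into their active form, differed by 0.25 log2 and 0.20 log2 for model against control (limma unadjusted p = 0.00585 and 0.0112). Between HPYD and control arrays they differed by 0.20 log2 and 0.28 log2 (limma unadjusted p = 0.0183 and 0.00161), and by 0.21 log2 and 0.26 log2 without HPYD 3. Cd180, a surface relative of Tlr4, was at 8.11, 8.06 and 7.05 in the HPYD arrays, 7.89, 7.53 and 8.34 in the model arrays, and 6.84, 7.05 and 7.26 in the control arrays. Its model arrays lay above all control arrays, by 0.87 log2 in the mean (limma unadjusted p = 0.0218), and HPYD 3 lay among the control arrays. With HPYD 3 left out, 4 of the 13 genes were higher in HPYD than in control arrays, Cd180, Ly86, Ctsl and Lgmn, beside 1.53% of all genes. Cd36, a scavenger receptor that works with Tlr2 and Tlr6, differed by 1.95 log2 for model against control (limma unadjusted p = 0.0427), through Model 1 at 8.20 and Model 2 at 7.92, against 4.84 in Model 3 and 4.62 to 5.31 in the control arrays. Both are among the 3 arrays with raised granulocyte genes, which also had the highest levels of skeletal muscle genes. Without these 3 arrays Cd36 differed by -0.19 log2. Granulocyte and muscle RNA cannot be told apart by this setting.

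The kinases and ligases that carry the signal inward gave 0 of 14 measured genes, of 18 listed, at an unadjusted p under 0.05 in all 3 comparisons. Of all genes, 4.92%, 1.97% and 3.24% passed in either direction for model against control, HPYD against model and HPYD against control. At such shares a count of 0 among 14 genes tells little. The medians of the 14 genes were -0.03, -0.01 and -0.02 log2 in the same order. Peli1, a ubiquitin ligase of this pathway, had the smallest p for model against control, at -0.21 log2 (limma unadjusted p = 0.164). Transcription factors, 11 of 12 measured, gave 2 genes that were higher in model than in control arrays, Irf8 by 0.61 log2 (limma unadjusted p = 0.0118) and Irf7 by 0.31 log2 (limma unadjusted p = 0.0172), 2 of 11 beside 2.87% of all genes. Irf8, which maintains the microglial state, was at 7.65, 7.87 and 7.07 in the HPYD arrays, 7.86, 7.56 and 7.73 in the model arrays, and 6.98, 7.15 and 7.20 in the control arrays. HPYD 3 lay among the control arrays, and the 5 other HPYD and model arrays lay above them. Without HPYD 3, Irf8 differed by 0.65 log2 for HPYD against control (limma unadjusted p = 0.00081, adjusted p = 0.449), beside 0.42 log2 with it. Of the inhibitors, 12 of 13 were measured. Cyld, a deubiquitinase that dampens NF-κB signalling, was lower in model than in control arrays, at -0.38 log2 (limma unadjusted p = 0.0484). This was 1 of 12 genes, where 2.05% of all genes were lower. Otud7b, another deubiquitinase, was higher in HPYD than in control arrays, by 0.27 log2 (limma unadjusted p = 0.0485). It was 1 of 12 genes, where 2.00% of all genes were higher. The Otud7b result no longer held without the array labelled HPYD group 3. Without the arrays with raised granulocyte genes Cyld gave -0.11 log2 (limma unadjusted p = 0.668).

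Of 22 cytokine, chemokine and other genes that these receptors induce, all were measured, and 3 were higher in model than in control arrays at an unadjusted p under 0.05, beside 2.87% of all genes. Ccl3, a chemokine of activated microglia, was at 8.69, 8.43 and 7.29 in the HPYD arrays, 8.40, 7.17 and 9.04 in the model arrays, and 5.85, 6.58 and 5.89 in the control arrays. The 3 HPYD and 3 model arrays lay above the control arrays, HPYD 3 and Model 2 by the least. Its difference was 2.10 log2 for model against control (0.90 to 3.29, limma unadjusted p = 0.00363, adjusted p = 0.859) and 2.03 log2 for HPYD against control (0.83 to 3.22), and for HPYD against model it was -0.07 log2 (-1.26 to 1.13). Without HPYD 3 the HPYD differences of Ccl3 were 2.45 log2 against control and 0.36 log2 against model. Cxcl9 and Cxcl10, chemokines induced by interferon, differed by 0.34 and 0.29 log2 for model against control. In HPYD arrays 4 of the 22 genes were higher than in control arrays, Ccl3, Ccl4, Cxcl10 and Saa3, where 2.00% of all genes were higher. Saa3, an acute-phase gene, had a low signal, 4.12 to 4.57 over all arrays. It was also 0.24 log2 higher in HPYD than in model arrays (limma unadjusted p = 0.0131), where 1.22% of all genes were higher. Without HPYD 3 it was 0.20 log2 higher than in model arrays (limma unadjusted p = 0.0456), where 0.692% of all genes were higher, and differed by 0.15 log2 from control arrays (limma unadjusted p = 0.126). The counts over the 22 genes for HPYD against control were 3 without the array labelled HPYD group 3, namely Il1a, Ccl3 and Cxcl10, beside 1.53% of all genes. The median difference over the 22 genes was 0.03 log2 for model against control. Tnf, the cytokine most often read as a sign of this pathway, differed by 0.02 log2 (-0.27 to 0.32). Its signal was low, 5.10 to 5.60 over all arrays.

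**Figure D4:**
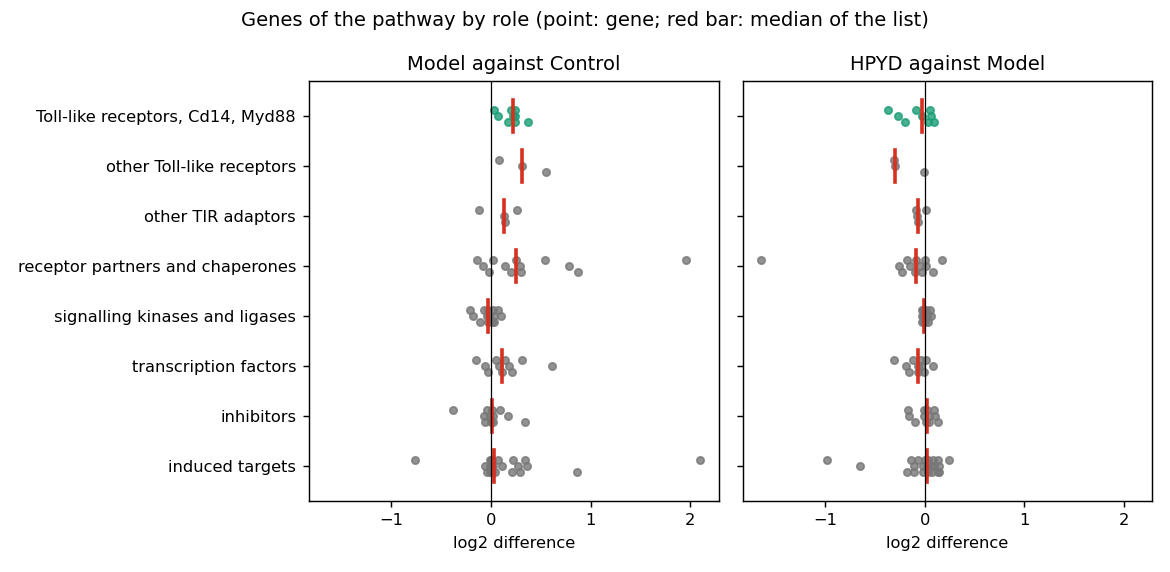
Log2 difference of each measured gene, grouped by role, for model against control on the left and HPYD against model on the right. The medians for model against control are 0.22 for the 9 genes, 0.31 for the other receptors, 0.25 for receptor partners and chaperones, -0.03 for kinases and ligases and 0.03 for induced targets.

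For the 3 genes with the widest range, the genes of most similar profile were sought as those with the smallest mean absolute difference over the 9 arrays after each profile was centred. This is a description over 9 arrays of 3 groups. Tlr7 was followed most closely by Havcr2, at 0.133 log2, Hpgds, at 0.134 log2, and Tgfbr1, at 0.139 log2. Havcr2, a receptor of microglia and T cells, was at 7.32, 7.09 and 6.13 in the HPYD arrays, 7.13, 6.41 and 7.39 in the model arrays, and 6.77, 6.95 and 6.92 in the control arrays, with HPYD 3 and Model 2 the lowest as in Tlr7. For Cd14 they were Ctsd, a lysosomal protease, at 0.0727 log2, Hcar2 at 0.10 log2 and Ccl28 at 0.101 log2. Ctsd was at 12.14, 12.07 and 11.66 in the HPYD arrays, 12.09, 11.86 and 12.13 in the model arrays, and 11.52, 11.73 and 11.49 in the control arrays, and as in Cd14 Control 2 was the highest control array. For Tlr2 they were Smim31, Cibar2 and Gm9833, at 0.0484 to 0.0519 log2, all of which had their lowest value in Control 3. These genes, Hcar2 and Ccl28 had low signals, below 6.32 in every array.

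**Figure D5:**
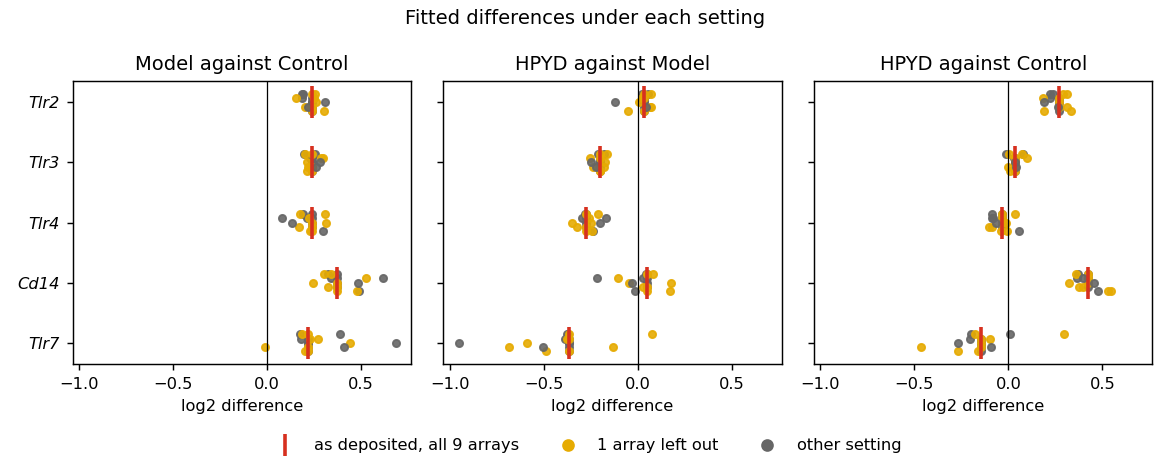
Fitted log2 differences of 5 genes under each setting, with a red mark for the values as deposited over all 9 arrays, yellow points for 1 array left out and grey points for other settings. Tlr3 stays right of 0 for model against control and left of 0 for HPYD against model, and Tlr7 for HPYD against model spans both sides of 0.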

How the data were processed

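Brain RNA of 9 samples was measured on Affymetrix arrays, 3 in each group of the labels. The file the authors deposited gives log2 values, 1 for each probe set in each array. MAS5 is named, with no version, in the submitters' processing notes; the sources used here do not give how background and scale were treated. Values were used as deposited, in R 4.3.3 with limma 3.58.1. Of 35556 probe sets, 21789 carry 1 gene symbol and 1621 several. Where a gene had several probe sets (999 genes), that of highest mean stood for it, which left 19938 genes. The 9 measured genes had 1 probe set each, and 9 of 9 Entrez identifiers carried the same symbol in RefSeq. No detection call was used, and Tlr1, Tlr4, Tlr6 and Cd14 fell below the limit of the filter on dim genes, a mean of 6.32. Among the other named genes, Tlr8, Tnf, Ccl4, Il1a, Saa3, Hcar2, Ccl28, Smim31, Cibar2 and Gm9833 lay below 6.32 in every array.

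One fit covered all 3 groups, with no covariate (limma, 6 residual and 2.13 prior degrees of freedom), and p-values were adjusted over all genes by the Benjamini-Hochberg method. Single genes were also compared with exact two-sided permutation tests. A gene was counted at an unadjusted p under 0.05 because 0 genes passed the adjusted threshold. The fit was tested on simulated data. Alternatives were other scalings, a filter on dim genes, the mean of probe sets, another variance model, weights for arrays, the replicate number as a block, a fit on only the 6 arrays compared, the analysis of variance of the methods and leaving out each array. Those that concern granulocyte genes were added after seeing the data. The genes, the 7 pathway lists and the 10 marker lists were chosen with earlier results of these data known. Beside the 9 genes, up to 3 genes of each list with the smallest p for model against control were named, and any gene on which a count of 5 or fewer rests. The number of arrays limits the precision.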

Additional observations from a re-analysis of the deposited data

How the results depend on the processing

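The count of the 9 genes past an adjusted p under 0.05 was 0 in every setting and comparison, and 0 of the differences at an unadjusted p under 0.05 as deposited changed sign. For model against control, 3 genes had an unadjusted p under 0.05 as deposited. This count was 0 with arrays shifted to one median, 1 after quantile normalization, 5 with array weights and 1 by the methods' analysis of variance with its Student-Newman-Keuls step. For HPYD against model it was 2 as deposited, 1 with shifted medians, 1 without genes below a mean of 6.32 (where 5 of the 9 genes were left), 0 with array weights, 1 by the analysis of variance, 1 with the granulocyte level as a covariate and 0 without the arrays with raised granulocyte genes. For HPYD against control it was 2 as deposited, 0 with shifted medians, 0 after quantile normalization, 1 without the dim genes, 0 by the analysis of variance and 0 without the raised arrays. The cause was not tested, beside the fewer genes or arrays by construction. For most of the settings the share of all genes is not given here. These counts therefore do not tell whether the 9 genes moved more than all genes did. With the replicate number as a block the counts were 1, 1 and 1. Samples of one number did not deviate together (correlations from -0.320 to 0.180 over all genes). Some samples of different numbers did, as HPYD 1 and Model 3 at 0.590. Such shared deviations could hide a pairing, so the check does not settle whether the number pairs the samples. Leaving out 1 array gave counts of 1 to 3 for model against control (1 without Model 1, Control 1 or Control 2), 0 to 2 for HPYD against model (0 without HPYD 3 or Model 2) and 0 to 3 for HPYD against control (0 without HPYD 2 or Control 3). The median difference over the 9 genes then ranged from 0.17 to 0.24, from -0.10 to 0.03 and from 0.05 to 0.20 log2. Of 258 single-gene values in other settings, 213 kept their direction and side of the threshold, 28 no longer passed it, 7 newly passed it and 10 that never passed changed sign. Of 243 with 1 array left out, these were 193, 28, 4 and 18.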
